A study of Mus musculus with 8 samples.

Results

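The interferon-induced gene families of the mouse liver were followed in 8 mice, 4 given a control virus and 4 given a virus that expresses AGXT. Members were all protein-coding genes of the GRCm38 annotation whose symbol begins with Ifit, Oas, or Ifi, Gbp or Isg and a digit, together with the Irf factors, the Stat factors of the interferon pathway, Ifih1, Mx1, Usp18 and Rsad2. This rule took 70 of the 52636 genes in the deposited tables, and no expression value entered it. It also took the Ifitm genes, because their symbols begin with Ifit, and Isg20l2, a nuclear exonuclease that is not known as an interferon target. Of the 70 members, 59 passed the low-count filter and were tested, and 11 were not.

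All animals were male C57BL/6J mice fed a diet rich in fat, fructose and cholesterol, which causes metabolic dysfunction-associated steatohepatitis (MASH), for 24 weeks. At 7 weeks of age, before the diet began at 8 weeks, each received adeno-associated virus serotype 8 (AAV8) by intraperitoneal injection. The virus carried green fluorescent protein (AAV8-GFP, mice 303, 311, 314 and 315) or human AGXT (AAV8-AGXT, mice 308, 309, 316 and 319) under the TBG promoter, which is active in hepatocytes. AGXT is the peroxisomal enzyme that converts glyoxylate to glycine. Both groups therefore shared the virus and the diet, so these comparisons hold no measure of what either does by itself, and each mouse gave 1 whole-liver RNA library.

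Interferons are secreted when a cell senses foreign or misplaced nucleic acid. Type I and type III interferons bind receptors whose kinases, JAK1 and TYK2, activate STAT factors, STAT2 among them, which join IRF9 to form the factor ISGF3, which binds the interferon-stimulated response element (ISRE) in target promoters. Type II interferon, made by T and NK cells, activates a STAT dimer that binds the gamma-activated sequence (GAS), and it is the main inducer of Gbp genes. The induced genes encode factors that bind viral RNA (Ifit), block entry (Ifitm), make the second messenger of RNase L (Oas), bind DNA (the PYHIN genes, Ifi202b to Ifi214), attack vacuoles (Gbp) or shut the response down (Usp18). In liver they are expressed by hepatocytes as well as by macrophages, endothelium and lymphocytes.

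The ISRE core was searched as GAAANNGAAA on both strands, from 250 bases before to 50 bases after each transcription start in the RefSeq promoter table (build GRCm38.p6), which holds 54 of the 70 members. It was found in 29 of these 54 members (53.7%), against 3.99% of all 27025 genes in the table. A gene was counted where any of its promoters in the table held the core. With a spacer of 1 or 2 bases between the GAAA repeats the shares were 57.4% and 7.27%. The GAS palindrome TTCNNNGAA, counted in the same way, was present in 12 members (22.2%) and in 9.55% of all genes. By family the ISRE core was held by 5 of 5 Gbp members in the table, 5 of 6 Ifit and 8 of 10 PYHIN members. It was held by 4 of 8 Oas, 2 of 7 Ifitm and 1 of 8 Irf members, and by 0 of 4 members of the mixed Ifi group. A match is a run of letters and was not tested as a binding site. Promoters of 16 members, Ifi27l2b, Ifi27l2a, Oas2 and Mx1 among them, were not analysed here.

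The bases just before the transcription start of 6 members are shown 5′ to 3′ on the strand of the gene, to let the element be read in members of 5 families. Capitals mark the ISRE core, which is read as TTTCNNTTTC where it lies on the other strand. The stretches are chr4:156200819-156200918 (minus strand) for Isg15, chr19:34640765-34640888 (plus) for Ifit1, chr3:142620563-142620662 (plus) for Gbp2, chr5:120907526-120907625 (minus) for Oas1a, chr5:120887614-120887713 (minus) for Oas1g and chr1:173741810-173741909 (minus) for Ifi207.
Isg15: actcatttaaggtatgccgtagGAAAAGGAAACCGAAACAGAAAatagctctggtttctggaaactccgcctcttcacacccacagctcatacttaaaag
Ifit1: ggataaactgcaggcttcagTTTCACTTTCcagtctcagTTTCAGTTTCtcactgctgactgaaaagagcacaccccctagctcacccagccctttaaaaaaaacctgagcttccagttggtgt
Gbp2: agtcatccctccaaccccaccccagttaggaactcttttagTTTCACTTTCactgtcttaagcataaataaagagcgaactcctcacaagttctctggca
Oas1a: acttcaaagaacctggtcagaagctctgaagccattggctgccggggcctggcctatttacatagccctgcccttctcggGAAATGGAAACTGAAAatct
Oas1g: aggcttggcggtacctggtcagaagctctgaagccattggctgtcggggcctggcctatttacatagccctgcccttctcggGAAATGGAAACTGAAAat
Ifi207: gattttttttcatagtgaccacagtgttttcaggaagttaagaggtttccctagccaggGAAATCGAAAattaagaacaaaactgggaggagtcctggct
In Isg15 3 cores overlap, beginning 78, 72 and 66 bases before the start, and in Ifit1 a pair lies 104 and 85 bases before it. In Oas1a and Oas1g a pair of overlapping cores lies much closer to the start, at 20 and 14 bases and at 18 and 12 bases.

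The libraries held 19747909 to 28780140 gene-assigned read pairs in AAV8-GFP livers and 17095433 to 23940200 in AAV8-AGXT livers (p = 0.171, two-sided exact permutation test). Levels are given as CPM, counts scaled to a fixed library total with TMM factors, and differences as log2 fold changes of AAV8-AGXT over AAV8-GFP. With edgeR's quasi-likelihood test at a Benjamini-Hochberg adjusted p under 0.05, 374 of 15248 genes were higher in AAV8-AGXT livers and 290 lower. The row of mouse Agxt held 148 to 180 CPM in AAV8-GFP and 202 to 405 CPM in AAV8-AGXT livers (log2 fold change 0.90, adjusted p = 0.0489, edgeR). The transgene is human, and how many of its reads were counted on the mouse row was not tested. Hepatocyte markers such as Alb were abundant in all libraries, with a sum of 7 markers of 45920 to 55730 CPM and 56590 to 78140 CPM. The spread between mice differed from member to member, with standard errors of the log2 fold change from 0.098 for Isg20l2 to 0.75 for Gbp2b.

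For all but 1 of the 59 tested members no difference between AAV8-AGXT and AAV8-GFP livers passed this test, and that member, Ifi27l2b, fell. At an adjusted p under 0.05, 1 of 59 tested members (1.69%) was lower, against 1.9% of all tested genes. No member was higher, against 2.45% of all tested genes, and DESeq2 and limma-voom also called no member higher. At an unadjusted p under 0.05 by edgeR, 10 members (16.9%) were lower and 0 higher, where the shares of all tested genes were 12.6% lower and 13.5% higher. In 5 members (8.47%) every AAV8-AGXT mouse lay below every AAV8-GFP mouse, which was so for 7.63% of all tested genes, and in 0 members every AAV8-AGXT mouse lay above, against 8.93%. The shares of members called lower were thus close to the background of these libraries. The DESeq2 Wald test called 2 of 62 members with an adjusted p (3.23%) lower, Ifi27l2b and its neighbour Ifi27l2a, against 6.37% of 16225 genes.

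The means lay mostly on one side. Of the 59 tested members 43 had a lower mean in AAV8-AGXT livers (72.9%), against 47.7% of all tested genes, and the median log2 fold change was -0.24 over the members and 0.02 over all tested genes. In 34 of 59 members the 95% interval of the log2 fold change lay within 1 either way. Scaled by total counts alone, 56 of 59 members (94.9%) had lower means, against 75.9% of all tested genes. This scaling moved the median of all tested genes to -0.22. The higher means given below kept their sign under it only for Gbp2b, Gbp7 and Ifi205. Over the 37 tested members without exon overlap and without long shared sequence the median was -0.18. The medians ran from -0.52 in the mixed Ifi group and -0.50 in Oas, through -0.43 in PYHIN, -0.24 in Ifit and -0.14 in Gbp, to -0.07 in Ifitm, -0.06 in the single genes and -0.06 in Irf. Without mouse 308, which is described below, the medians were -0.32 for the mixed Ifi group, -0.36 for Oas, -0.32 for PYHIN, -0.12 for Ifit and -0.00 for Gbp, and -0.13 over all members. Over the 8 fits that omit 1 mouse each, the Ifitm median ran from -0.27 to 0.16 and the Irf median from -0.18 to 0.09, so neither kept its sign. Every Ifitm median above 0 came from a fit that tested 5 Ifitm members instead of 4.

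**Figure D1:**
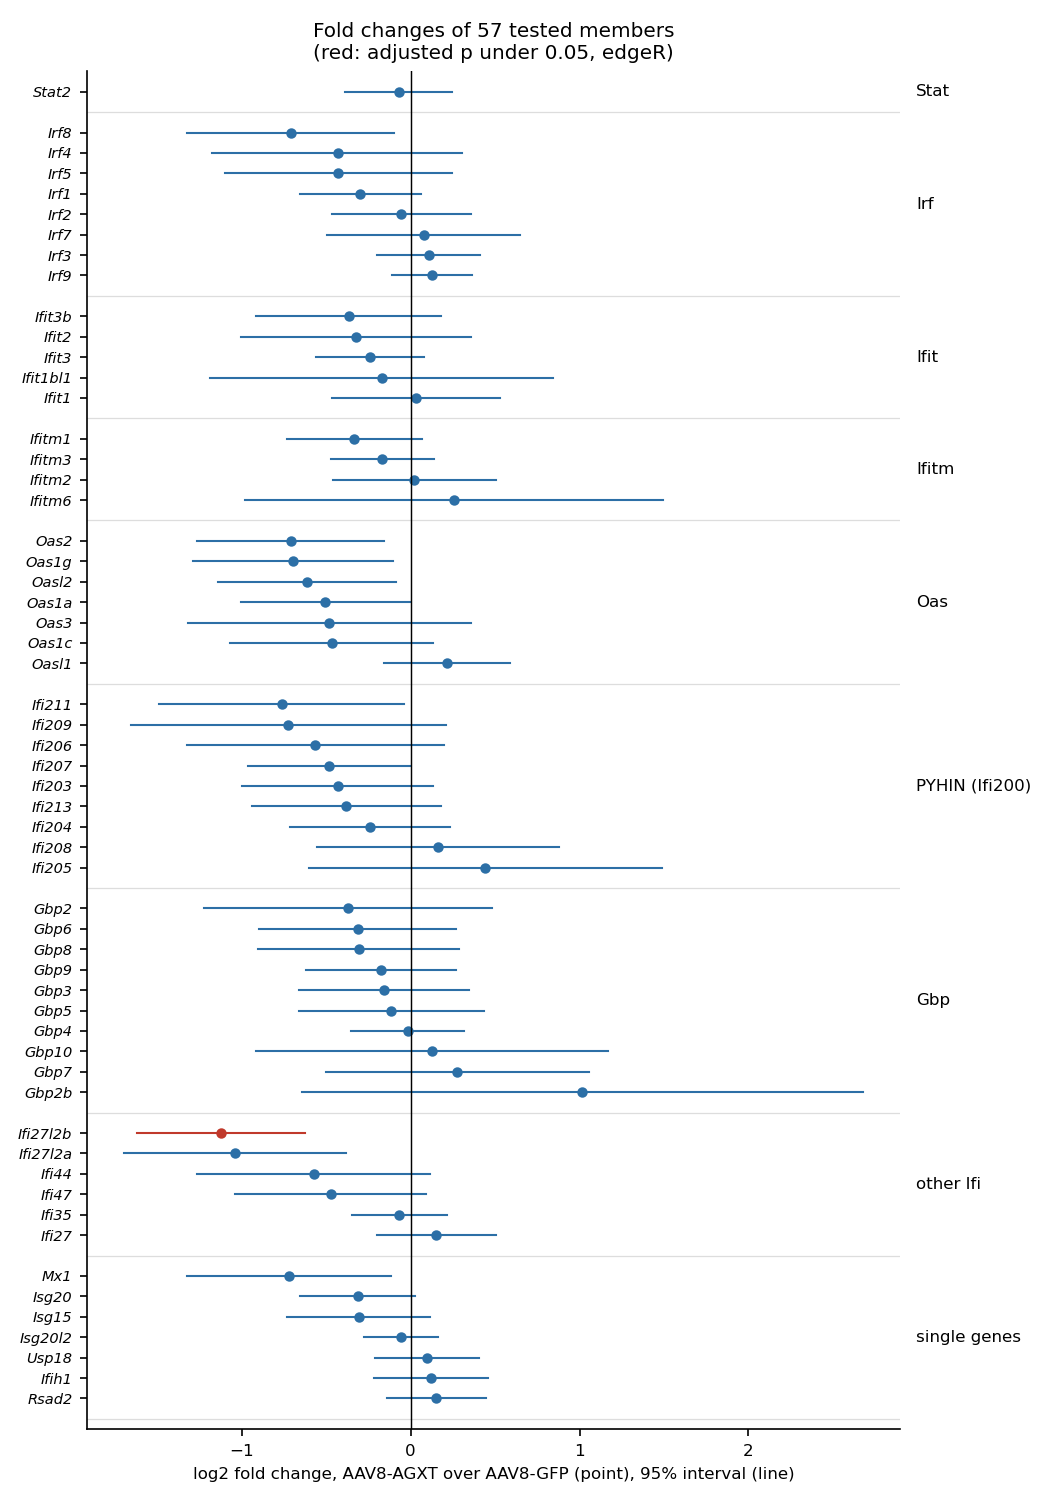
Log2 fold change of AAV8-AGXT over AAV8-GFP (points, x axis) with its 95% interval (lines) for 57 of the 59 tested members, grouped by family, from the edgeR fit of 4 against 4 mice. The single red member, Ifi27l2b at -1.12, had an adjusted p under 0.05, and most points of the Oas and PYHIN families lie left of 0 with intervals that reach or nearly reach it.

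At the top of the pathway, interferon transcripts were near the limit of detection. None of 21 ligand genes passed the low-count filter, 16 of them, including Ifna1 and Ifna2, had 0 counts in every mouse, and no ligand gene had more than 4 counts in any mouse. Of 9 receptor and kinase genes 1 was called lower, against 1.9% of all tested genes. At an unadjusted p under 0.05 by edgeR 3 were lower and 0 higher, against 12.6% and 13.5%. In 3 all AAV8-AGXT mice lay below all AAV8-GFP mice, against 7.63%. The called gene, Il10rb, encodes the chain shared by the receptors of type III interferon and interleukin-10. It had 25.3, 32.0, 28.0 and 26.0 CPM in the AAV8-GFP mice and 9.46, 15.2, 18.9 and 15.2 CPM in the AAV8-AGXT mice (log2 fold change -0.92, SE 0.19, adjusted p = 0.0363, edgeR). Its groups did not overlap, and the call was lost when mouse 303, 311, 314 or 319 was left out. Its partner Ifnlr1, the specific chain of the type III receptor, was at 2.52 ± 0.704 and 1.10 ± 0.397 CPM (SD, n = 4 each), with an adjusted p of 0.0627 by edgeR and 0.00921 by DESeq2. The median over the 9 genes was -0.09.

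The transcription factors that pass the signal on differed little in their means. Stat2, a subunit of ISGF3, was at 167, 173, 136 and 174 CPM in AAV8-GFP livers and at 164, 134, 134 and 187 CPM in AAV8-AGXT livers, so the ranges lay on each other. Its log2 fold change was -0.07 with a 95% interval of -0.39 to 0.25. Irf9, the DNA-binding subunit of ISGF3, was at 61.8 ± 2.66 and 67.4 ± 8.50 CPM (SD, n = 4 each; 0.13, interval -0.11 to 0.36). Both intervals leave out a 2-fold change in either direction, that is a log2 change of 1.

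Among the other factors, Irf8 showed the smallest p-value. It is needed for monocyte and dendritic cell development and is known chiefly from macrophages, dendritic cells and B cells. Its level was 20.03, 31.7, 26.1 and 22.98 CPM in the AAV8-GFP mice and 7.59, 14.0, 18.8 and 21 CPM in the AAV8-AGXT mice. The groups touched only at mouse 319, which exceeded mouse 303, and the log2 fold change was -0.71 (SE 0.27, adjusted p = 0.14, edgeR). Irf5, which acts below Toll-like receptors in macrophages, was at 18.5 ± 4.07 and 13.7 ± 6.11 CPM (SD, n = 4 each; -0.43, adjusted p = 0.396), and 14.1% of its exon bases overlap Tnpo3 on the opposite strand. Irf4, a factor of lymphocytes and dendritic cells, was scarce, with 4 to 28 counts per mouse (-0.43, adjusted p = 0.434).

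Irf7, the factor that amplifies type I interferon production and is itself induced, varied more within the AAV8-AGXT group than between groups. It was at 92.3, 99.4, 64.9 and 97.5 CPM in the AAV8-GFP mice and at 61.3, 64.2, 123 and 125 CPM in the AAV8-AGXT mice. Mice 308 and 309 were below all AAV8-GFP mice, and mice 316 and 319 were above them. Irf3, the constitutive factor that starts interferon transcription, was at 97.8 ± 11.0 and 105 ± 16.7 CPM (SD, n = 4 each). With total counts Irf3, Irf7 and Irf9 were at -0.14, -0.15 and -0.12. Irf1, induced by type II interferon, was at 50.7 ± 7.59 and 41.2 ± 8.39 CPM (-0.30, adjusted p = 0.27, edgeR). Irf2, which competes with IRF1 for its sites, had a log2 fold change of -0.06 (SE 0.18).

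The Oas family encodes enzymes that sense double-stranded RNA and make 2′-5′ oligoadenylates, which activate RNase L. In these livers 6 of its 7 tested members had lower means and none was called, with 4 at an unadjusted p under 0.05, all lower. Of all tested genes 47.7% had lower means and 12.6% were lower at that p. Oas2 was at 29.4, 49.1, 28.1 and 35.0 CPM in AAV8-GFP livers and at 12.3, 26.5, 24.5 and 23.1 CPM in AAV8-AGXT livers. All AAV8-AGXT mice lay below all AAV8-GFP mice, with mouse 308 lowest and mouse 311 highest, and the log2 fold change was -0.71 (SE 0.25, adjusted p = 0.112, edgeR). Oas1g was at 6.76, 10.4, 6.83 and 6.00 CPM against 2.62, 4.69, 5.91 and 5.24 CPM (-0.70, SE 0.27, adjusted p = 0.137). The groups again did not overlap, but the lowest AAV8-GFP and the highest AAV8-AGXT mouse differed by less than the spread within either group.

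Oasl2 and Oas1a followed with -0.62 (SE 0.24) and -0.50 (SE 0.23), and Oas3 and Oas1c were at -0.48 and -0.47. Oas1a and Oas1g share 57.6% and 54.7% of their 50-base stretches with other genes, mainly each other, so how their reads were divided is uncertain. Oasl1, which lacks synthetase activity and restrains translation of Irf7 mRNA, had a higher mean, 20.7 ± 2.43 against 24.0 ± 5.72 CPM (SD, n = 4 each; 0.22, adjusted p = 0.443). Oas2, Oas3 and the Oas1 genes lie side by side at chr5:120730333-120921652, and all 5 tested members of this cluster had lower means. Oasl2 and Oasl1 lie together at chr5:114896936-114937915.

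Ifi27l2b, one of 3 neighbouring members at chr12:103434211-103457223, was the only one of the 59 called lower by edgeR. These genes encode small hydrophobic proteins related to human IFI27, known from mitochondrial and nuclear membranes. Ifi27l2b was at 94.4, 104, 107 and 114 CPM in the AAV8-GFP mice and at 25.4, 55.5, 58.0 and 53.1 CPM in the AAV8-AGXT mice. No mouse of one group came near the other, and mouse 308 stood apart below its own group. The log2 fold change was -1.12 (SE 0.22, 95% interval -1.62 to -0.62, adjusted p = 0.0351, edgeR). The call was lost when mouse 303, 311, 314 or 319 was left out, with adjusted p-values up to 0.127, while the log2 fold change stayed between -1.22 and -0.93 over all 8 such fits.

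Ifi27l2a, a widely used reporter of type I interferon, was at 30.3, 44.5, 23.9 and 23.3 CPM against 9.32, 11.5, 23.2 and 15.2 CPM. The lowest AAV8-GFP mouse and the highest AAV8-AGXT mouse were almost equal. The log2 fold change was -1.04 (SE 0.29, adjusted p = 0.072, edgeR), and the adjusted p was 0.0106 by DESeq2, 0.0384 without the low-count filter and 0.0401 without mouse 316. Ifi27, the third gene of the cluster, had 174 ± 29.0 and 194 ± 29.6 CPM (SD, n = 4 each; 0.15, adjusted p = 0.575). With total counts it was at -0.08. Of the remaining members of this mixed group, Ifi44, a cytoplasmic protein, and Ifi47, an immunity-related GTPase, were at -0.58 and -0.47 and Ifi35 at -0.07, none of them called.

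Among the single effectors and sensors 4 of 7 had lower means, against 47.7% of all tested genes, and none was called. Mx1 encodes a dynamin-like GTPase that blocks viral nucleocapsids, and C57BL/6 mice are known to carry a defective allele of it. It was at 11.0, 14.3, 10.3 and 12.7 CPM in AAV8-GFP livers and at 3.73, 6.97, 11.0 and 7.503 CPM in AAV8-AGXT livers. Mouse 316 lay within the AAV8-GFP range and the other AAV8-AGXT mice below it (-0.72, SE 0.27, adjusted p = 0.132, edgeR). Isg15, a ubiquitin-like modifier, was at 23.7, 32.5, 20.5 and 27.6 CPM against 14.5, 21.1, 24.5 and 24.1 CPM (-0.31, SE 0.19, adjusted p = 0.33). Isg20, an exonuclease for single-stranded RNA, did not overlap between groups, at 6.05 to 7.29 CPM against 4.67 to 6.01 CPM, with a gap smaller than the SD of either group (-0.31, adjusted p = 0.229).

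The other 3 had slightly higher means. Rsad2 encodes viperin, which makes a chain-terminating nucleotide. It was at 20.2, 19.3, 19.3 and 18.7 CPM in the AAV8-GFP mice and at 16.5, 25.2, 22.8 and 21.5 CPM in the AAV8-AGXT mice, so mouse 308 was below and the other AAV8-AGXT mice were above all AAV8-GFP mice (0.15, adjusted p = 0.497, edgeR). Ifih1, the cytosolic RNA sensor MDA5, had a log2 fold change of 0.12 (SE 0.15), and Usp18, which removes ISG15 and blocks the type I receptor, one of 0.09 (SE 0.14). With total counts these 3 were at -0.07, -0.10 and -0.13. Isg20l2 was at -0.06.

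**Figure D2:**
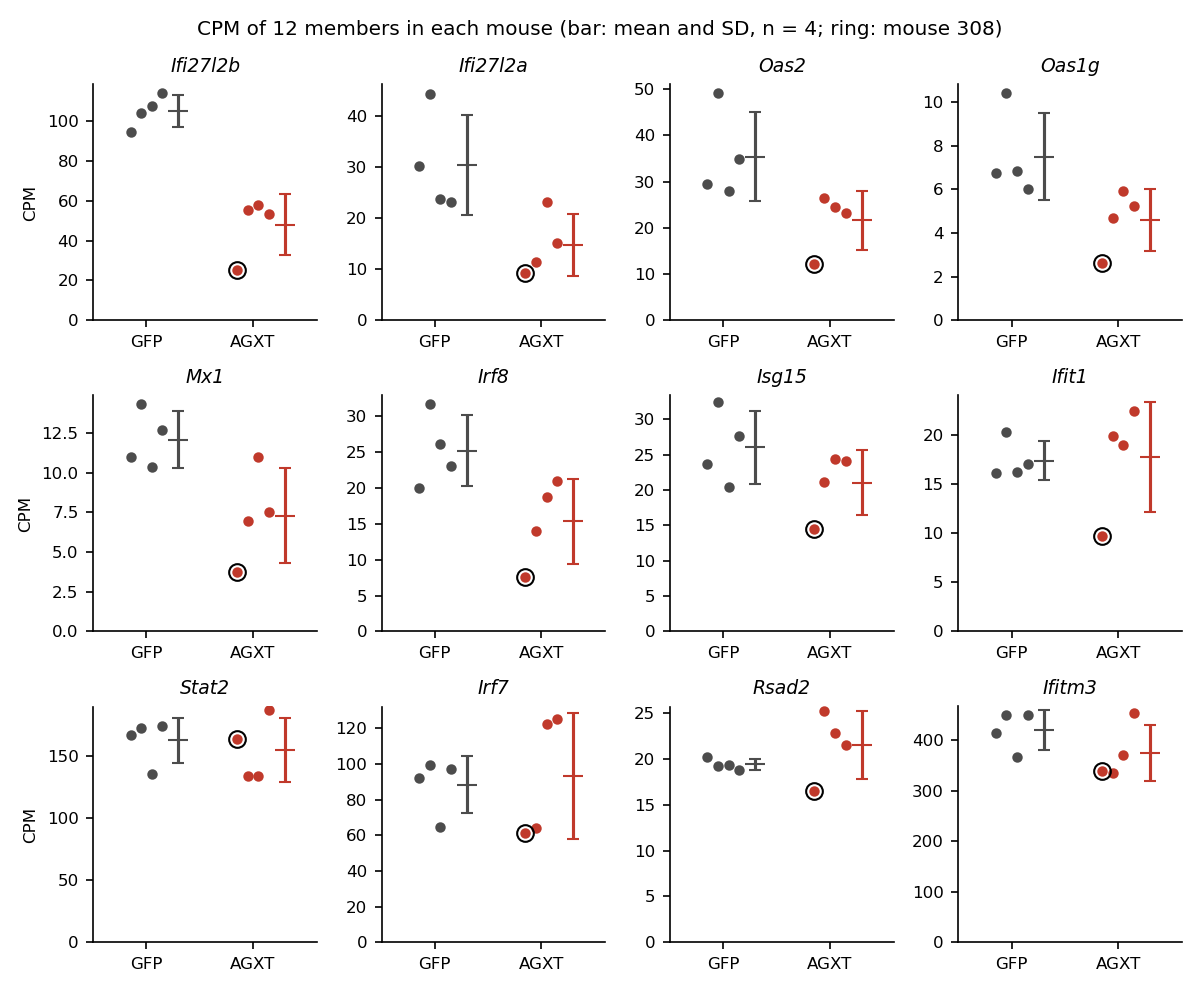
CPM (y axes, from 0) of 12 members in each of the 4 AAV8-GFP mice (grey) and 4 AAV8-AGXT mice (red), with the mean and SD beside the points and a ring around mouse 308. Ifi27l2b separates the groups widely, Oas2 and Oas1g by a small gap, and Stat2, Irf7, Rsad2 and Ifitm3 overlap, with mouse 308 lowest of all mice in 10 of the 12 panels.

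The Ifit proteins bind viral RNA that lacks the methylated cap of the host, and their genes lie together at chr19:34550694-34650009. None of 5 tested members was called, and none had an unadjusted p under 0.05. Ifit3, the most abundant, was at 28.6, 30.4, 28.5 and 22.6 CPM against 18.4, 25.2, 27.2 and 22.4 CPM (-0.24, SE 0.14, adjusted p = 0.314, edgeR). The paralogue Ifit3b, with which Ifit3 shares 51.2% of its 50-base stretches, was at -0.37 (SE 0.25). Ifit1 was at 17.4 ± 1.96 and 17.7 ± 5.58 CPM (SD, n = 4 each), with a log2 fold change of 0.03 whose sign changed with the normalization. Without mouse 308, at 9.67 CPM, the AAV8-AGXT mice were at 19 to 22.4 CPM, above 3 of the 4 AAV8-GFP mice.

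The Ifitm proteins sit in membranes and hinder the fusion of enveloped viruses. Ifitm3 had the highest level of all members, 414, 450, 367 and 449 CPM in AAV8-GFP and 339, 335, 370 and 453 CPM in AAV8-AGXT livers, with wide overlap (-0.17, SE 0.14, adjusted p = 0.47, edgeR). Ifitm1 was at 12.3 ± 2.70 and 9.78 ± 1.40 CPM (SD, n = 4 each; -0.33, adjusted p = 0.271). Ifitm2 and the scarce Ifitm6 had higher means, 0.02 and 0.25, and 40.9% of the exon bases of Ifitm2 overlap another gene on the same strand.

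The PYHIN genes, whose products bind DNA and include inflammasome and cell-cycle regulators, form 1 cluster of 11 members at chr1:173468485-174031810. Of 9 tested members 7 had lower means, none was called, and Ifi211 and Ifi207 had an unadjusted p under 0.05. Among all tested genes 47.7% had lower means and 12.6% were lower at that p. Ifi207, the most abundant per length, was at 18.6, 26.9, 20.8 and 21.2 CPM against 9.25, 19.1, 18.5 and 15.7 CPM (-0.48, SE 0.21, adjusted p = 0.189, edgeR). Here mouse 309 lay just inside the AAV8-GFP range, and the others below it. Ifi211 was at 3.20 ± 0.80 and 1.86 ± 0.771 CPM (SD, n = 4 each; -0.76, adjusted p = 0.171), but 72.9% of its 50-base stretches occur in other genes of the cluster. Ifi203 was at 28.6 ± 2.94 and 21.2 ± 8.70 CPM (-0.43, adjusted p = 0.307). Ifi208 and Ifi205 had higher means, 0.16 and 0.44, with standard errors of 0.32 and 0.47.

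The guanylate-binding proteins are large GTPases that assemble on bacteria and parasite vacuoles, and all 10 members were tested. None was called or had an unadjusted p under 0.05, with 7 lower and 3 higher means, where 47.7% of all tested genes had lower means. Gbp3, the most abundant, was at 12.7, 13.0, 13.7 and 17.2 CPM against 7.11, 13.4, 13.6 and 16.4 CPM, so the groups matched except in mouse 308 (-0.16, SE 0.23, adjusted p = 0.696, edgeR; 0.02 without mouse 308). Gbp6 was at 4.84 ± 1.22 and 3.86 ± 1.07 CPM (SD, n = 4 each; -0.31, adjusted p = 0.477), and it shares 59.7% of its 50-base stretches with other genes, among them Gbp10. Gbp2b had the highest log2 fold change of all members, 1.01 (SE 0.75, adjusted p = 0.416), and this rested on 1 mouse. It was at 0.859, 1.13, 0.876 and 3.13 CPM in AAV8-GFP and at 1.45, 1.502, 0.668 and 8.26 CPM in AAV8-AGXT livers, and without mouse 319 the log2 fold change was -0.32.

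Genes whose symbols match but whose annotation class kept them out were Mx2, Oas1b, Gbp11, Ifi30 and a pair of pseudogenes. Mx2 was at 0.11 (adjusted p = 0.663), Oas1b at -0.48 (0.131), Ifi30 at -0.72 (0.107) and Gbp11 at 1.11 (0.178), all by edgeR, and the last rested on mouse 309, at 34.1 CPM against 5.82 to 9.25 CPM in the other 7 mice. The 11 untested members, Ifit1bl2, Ifitm5, Ifitm7, Ifitm10, Oas1d, Oas1e, Oas1f, Oas1h, Ifi202b, Ifi214 and Ifi44l, had at most 23 counts in any mouse. Oas1f and Ifi202b had 0 counts in every mouse.

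The library of 1 mouse, 308, carried much of the size of the lower median of the members. The share of members with lower means was 72.9% with it and 70% without it. Among all tested genes that share was 47.7% with it and 52.2% without it. Relative to the AAV8-GFP mean, with 0.5 CPM added before taking logs, the median of the 59 members was -0.80 in mouse 308, and -0.15 to 0.15 in the other 7 mice. The other AAV8-AGXT mice were at -0.15 (309), -0.10 (316) and -0.03 (319), and the AAV8-GFP mice at -0.13 (303), 0.15 (311), -0.05 (314) and 0.05 (315). The median of all tested genes was between -0.02 and 0.04 in each mouse. Mouse 308 held the lowest value of the 8 mice for 41 of 59 members (69.5%), which it held for 20.6% of all tested genes. Mouse 311 held the highest for 24 members (40.7%), against 11.9% of all tested genes. Without mouse 308 the median log2 fold change of the members was -0.13, and 42 of 60 tested members (70%) still had lower means, against 52.2% of all genes tested in that fit, whose median was -0.02. This library also had the lowest share of its read pairs on genes, 56.3% against 62.4% to 69.1% in the other 7, and the highest shares of unaligned pairs (6.05% against 1.32% to 4.55%) and of alignments at several places (23.4% against 17.4% to 22.5%). The part of these library differences in the low values of mouse 308 was not tested. Without mouse 311, 2 members had an unadjusted p under 0.05 and none was called.

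**Figure D3:**
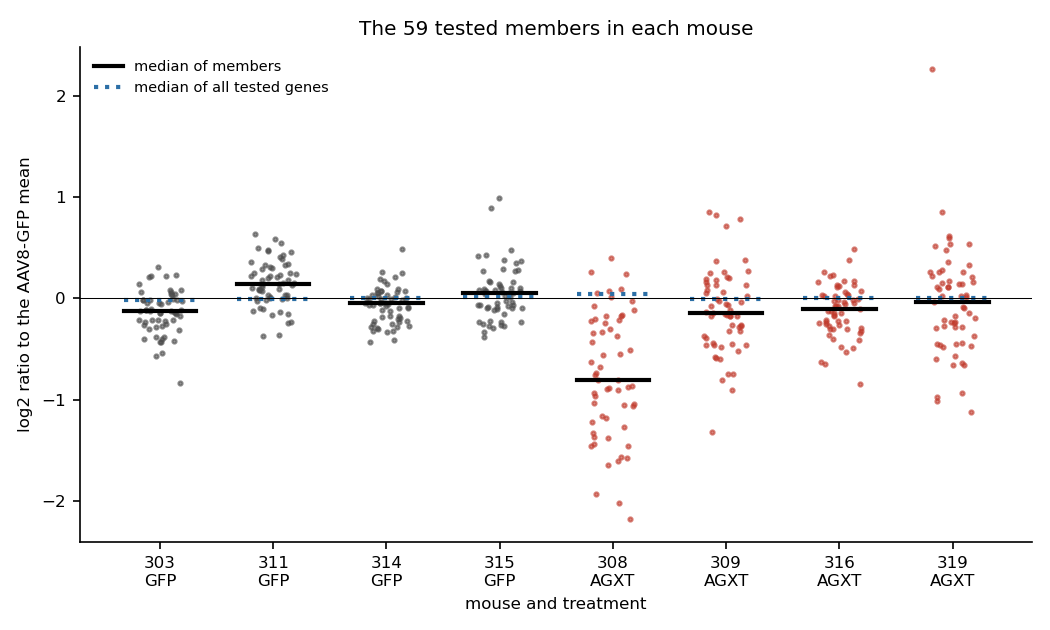
Log2 ratio of each of the 59 tested members to its AAV8-GFP mean (dots, y axis) in each mouse (x axis, grey AAV8-GFP, red AAV8-AGXT), with the median of the members (black bar) and of all tested genes (dotted blue bar). Mouse 308 has its median at -0.80, and the other 7 mice lie between -0.15 and 0.15, while the medians of all tested genes stay near 0.

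Markers of several immune cell types had lower mean sums in AAV8-AGXT livers, as many members did. Kupffer cell markers did not, with 1 AAV8-AGXT mouse, 319, far above all others. The summed level of 9 macrophage markers, none of them at 0 in every mouse, was 766 to 1284 CPM in AAV8-GFP and 281 to 863 CPM in AAV8-AGXT livers, with mouse 308 lowest and mouse 311 highest. Markers of conventional dendritic cells summed to 41.3 to 60.3 CPM and 22.99 to 36.8 CPM (7 markers, 7 lower means). Monocyte markers summed to 47.2 to 76.4 CPM and 12.9 to 47.2 CPM, T and NK cell markers to 13.9 to 22.4 CPM and 5.80 to 15.7 CPM, and neutrophil markers to 20.7 to 33.2 CPM and 6.97 to 22.4 CPM. Markers of lipid-associated macrophages summed to 538 to 1156 CPM and 186 to 552 CPM, and of these Cd9 was called lower (log2 fold change -1.03, adjusted p = 0.0298, edgeR). Mouse 308 was lowest of all mice in each of these 6 sums. At an unadjusted p under 0.05 by edgeR, 2 of 9 macrophage and 3 of 6 monocyte markers were lower. So were 2 of 7 conventional dendritic cell and 4 of 6 lipid-associated macrophage markers. Of tested T and NK cell markers 4 of 10 were lower, and of neutrophil markers 1 of 4, against 12.6% of all tested genes. Higher at that p was 1 macrophage marker, and no marker of the other lists among these. Of 6 Kupffer cell markers 5 had higher means in AAV8-AGXT livers, with a median log2 fold change of 0.37. At an unadjusted p under 0.05 by edgeR 2 were higher, against 13.5% of all tested genes. Their sum was 231 to 364 CPM in AAV8-GFP livers and 181, 253, 316 and 743 CPM in AAV8-AGXT mice 308, 309, 316 and 319. Only mouse 319 lay above the AAV8-GFP range, and mouse 308 was lowest there too. Among other cell types, cholangiocyte markers summed to 225 to 673 CPM and 74.1 to 272 CPM, lowest in mouse 308. All 5 of them were lower at an unadjusted p under 0.05 by edgeR. They share Spp1 with the markers of lipid-associated macrophages, so these sums are not independent. Sums of markers of sinusoidal endothelium (121 to 190 CPM and 125 to 250 CPM) and of hepatocytes were highest in mouse 308, and the hepatocyte marker Cps1 was called higher (0.96, adjusted p = 0.0279). Stellate cell markers summed to 537 to 710 CPM and 377 to 698 CPM. In whole liver, fewer cells of a type and less RNA per cell cannot be told apart, and the part of these cells in the lower means of Oas, PYHIN, Irf8 and Mx1 was not tested. Sums of B cell markers overlapped, at 5.25 to 11.2 CPM and 5.71 to 7.498 CPM. Of 6 plasmacytoid dendritic cell markers, Ly6d made up most of the sum (301 ± 36.0 and 108 ± 49.4 CPM, SD, n = 4 each) and was called lower (-1.48, adjusted p = 0.0486, edgeR), and Siglech, the defining one, was at 1.34 ± 0.541 and 0.655 ± 0.514 CPM.

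Per length of exon, the members spanned a wide range of levels in both groups. Ifitm3 stood at 620 and 552 CPM per kb in AAV8-GFP and AAV8-AGXT livers, followed by Ifi27 (119 and 132), Ifitm2 (115 and 117), Ifi27l2b (95.8 and 43.9) and Ifi27l2a (65.9 and 32.0). In AAV8-GFP livers Ifi27 and Ifitm2 differed by less than the SD of Ifi27, Ifi27l2b lay below Ifitm2 by more than either SD, and the step from Ifi27l2b to Ifi27l2a also exceeded both SDs. Isg15 (34.5 and 27.8), Irf3 (28.4 and 30.6), Stat2 (27.4 and 26.1) and Irf7 (23.4 and 24.7) came next in AAV8-GFP livers, and neighbours among these 4 differed by less than the larger of their SDs. Oas members were at 1.05 to 8.57, PYHIN members at 0.232 to 5.48 and Gbp members at 0.415 to 4.10 CPM per kb over all 8 mice.

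**Figure D4:**
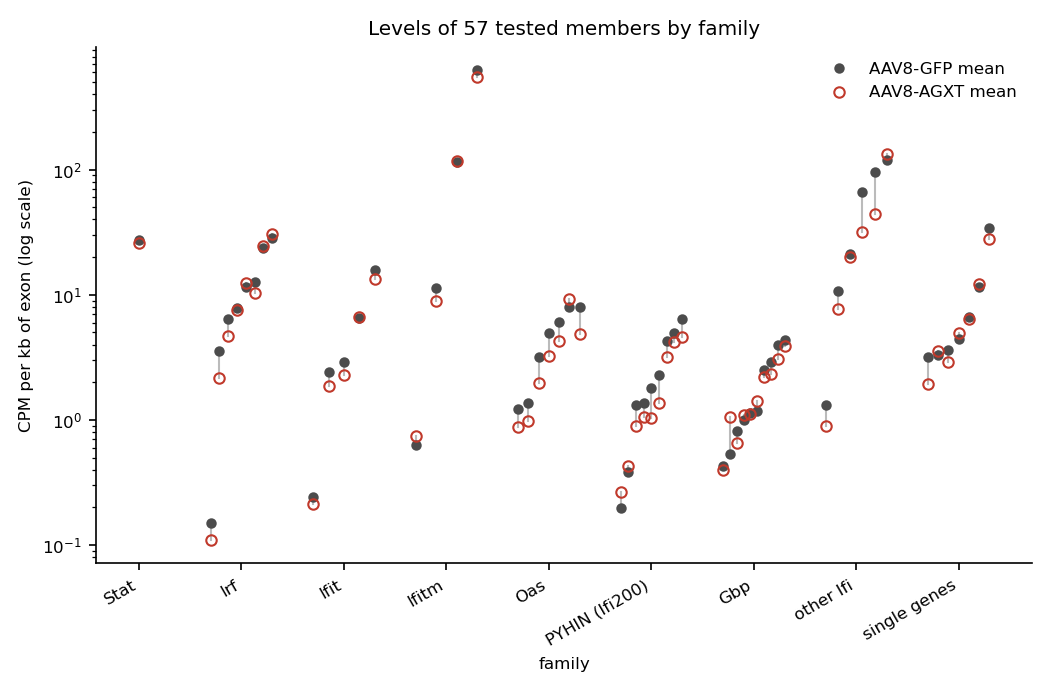
Mean level in CPM per kb of exon (y axis, log scale) of 57 of the 59 tested members in AAV8-GFP (filled) and AAV8-AGXT livers (open), by family, n = 4 mice each, with a line joining the means of each gene. Ifitm3 is highest at 620 and 552 CPM per kb, and Ifi27l2b and Ifi27l2a show the longest lines among the abundant members.

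Other genes of the pathway were read from lists, whose counts stand against 12.6% lower and 13.5% higher among all genes at an unadjusted p under 0.05, and 6.37% lower and 6.58% higher by DESeq2. Of 15 tested nucleic acid sensors and adaptors none was called by edgeR, with 2 lower and 2 higher at an unadjusted p under 0.05 and a median of -0.03, and DESeq2 called 1 lower and 1 higher. Mavs, the mitochondrial adaptor of RNA sensors, was at 73.7 ± 10.5 and 102 ± 13.9 CPM, and Tmem173, which encodes the DNA-pathway adaptor STING, at 8.52 ± 1.99 and 4.82 ± 1.33 CPM (SD, n = 4 each; adjusted p = 0.0741 and 0.081, edgeR). Ikbke, a kinase that activates IRF3, had a log2 fold change of -0.55 (adjusted p = 0.15). Among 10 negative regulators none was called, 2 were lower and 1 higher at an unadjusted p under 0.05, DESeq2 called 0, and the median was 0.06. The smallest p-values there belonged to Ptpn2 (-0.28), Socs1 (-0.86) and Trim24 (0.66), with adjusted p of 0.156, 0.157 and 0.161.

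Of 40 other interferon-induced effectors none was called by edgeR, 5 were lower and 2 higher at an unadjusted p under 0.05, DESeq2 called 3 lower, and the median was -0.07. Slfn8, a Schlafen protein, was at 9.32 ± 1.82 and 5.06 ± 1.70 CPM, Phf11b at 3.78 ± 0.603 and 1.93 ± 0.840 CPM, and Parp9, a partner of the ubiquitin ligase DTX3L, at 58.2 ± 5.02 and 73.6 ± 8.40 CPM (SD, n = 4 each; adjusted p = 0.0709, 0.0943 and 0.095). Of 28 tested genes that type II interferon induces none was called by edgeR, 6 were lower and 2 higher at an unadjusted p under 0.05, DESeq2 called 3 lower, and the median was -0.21. Cxcl10, the chemokine that draws CXCR3-bearing T cells, was at 8.20, 11.0, 11.8 and 16.9 CPM against 2.90, 7.21, 7.19 and 6.14 CPM, without overlap (-1.02, SE 0.30, adjusted p = 0.0752, edgeR). Batf2, a factor of activated macrophages, and Tap2, the peptide transporter subunit, were at -0.99 and -0.36 (adjusted p = 0.0724 and 0.0737), also without overlap. In 4 of the 28 genes all AAV8-AGXT mice lay below all AAV8-GFP mice, against 7.63% of all tested genes. In 0 genes they lay above, against 8.93%.

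Among tested members whose promoters were read, the median log2 fold change was not lower in genes that hold the ISRE core. Ifi27l2b, Ifi27l2a, Oas2 and Mx1 were not among these members. The core was also held unevenly between families, so this split is in part a split by family. The 27 tested members with the core had a median log2 fold change of -0.17, with 19 lower means and none called. The 18 tested members of the table without it had a median of -0.32, with 13 lower means. With a spacer of 1 or 2 bases, 21 of 29 tested members with the core had lower means, and 11 of 16 without it. The medians were again -0.17 and -0.32. Lower means were seen in 47.7% of all tested genes. The 11 tested members with the GAS palindrome had a median of -0.17, with 9 lower means. The 34 without it had a median of -0.32, with 23 lower means. The printed promoters show the same spread: Isg15 with 3 cores was at -0.31, Ifit1 with 2 at 0.03, Gbp2 with 1 at -0.37, Oas1a and Oas1g with 2 each at -0.50 and -0.70, and Ifi207 with 1 at -0.48.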

How the data were processed

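The authors sequenced stranded mRNA libraries of whole liver, 1 per mouse, checked the reads with FastQC 0.11.8, trimmed them with Trimmomatic 0.35, aligned them with HISAT2 2.1.0.13 against the GRCm38 build and assigned pairs to Ensembl genes by HTSeq. The deposited values are raw gene counts, without normalization. The strand option and overlap mode of the counting are not given in the sources used here, so genes that overlap another gene or share long sequence with one are uncertain. Of 52636 gene rows, 52489 were matched to GENCODE M21 for symbols and positions.

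Groups came from the treatment in the sample labels, and all 8 mice were used. Groups were compared with edgeR 4.0.16 under R 4.3.3 (filterByExpr, TMM, quasi-likelihood test, treatment only, Benjamini-Hochberg adjustment over 15248 genes) and a threshold of 0.05 on the adjusted p for a call. Fold changes carry edgeR's prior count of 0.125. Exon overlap and shared stretches of 50 bases were counted as uncertain above 10%. Alternatives were DESeq2 1.42.0, limma-voom (limma 3.58.1), robust estimation, other size factors, other filters and each mouse left out.

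The members and lists were chosen with earlier results of these data known. Named were members called, members whose groups did not overlap, the most abundant member and the 2 smallest p-values of each family, Stat2, the Irf genes and textbook members (Isg15, Mx1, Mx2, Rsad2, Usp18, Ifih1 and Ifit1), and in the other interferon lists the called genes or else the 3 smallest p-values. Ifi30, Gbp11, Oas1b, Oasl1 and other members beside these were named after their values were seen. Values of some members are not given individually here, although all members entered the counts and medians.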

Additional observations from a re-analysis of the deposited data

Results flagged for a closer look

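In groups of 4 mice, a mouse was picked out where its gap to the nearest other mouse as a share of the range of its group exceeded Dixon's 95% critical value. Of 62 groups of named members 4 were picked out, and chance flags about 1 in 20 groups. Gbp2b was at 3.13 CPM in AAV8-GFP mouse 315, against 0.859 to 1.13 CPM in the other AAV8-GFP mice, and at 8.26 CPM in AAV8-AGXT mouse 319, against 0.668 to 1.502 CPM in the others of its group. Ifi27l2b was at 25.4 CPM in AAV8-AGXT mouse 308, against 53.1 to 58.0 CPM. Irf3 was at 81.3 CPM in AAV8-GFP mouse 314, against 103 to 104 CPM.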

How the results depend on the processing

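No member was called higher in any of the 16 alternative fits. The number of members lower at an adjusted p under 0.05 was 1 with edgeR, 2 with DESeq2 and 2 without the low-count filter, and 0 to 2 with 1 mouse left out. Over all tested genes, 290 lower calls became 1033 with DESeq2 and 857 with total counts, and 0 to 325 with 1 mouse left out, and 374 higher calls became 1068, 144 and 2 to 379. The receptor list had 2 calls with DESeq2, 2 with total counts and 0 to 1 with 1 mouse left out. The list of type II interferon genes had 3 calls with DESeq2, 1 without the filter and 4 with total counts, the sensors had 2 with DESeq2, and the other effectors 3 with DESeq2 and 0 to 1 with 1 mouse left out.

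Total counts moved the median of all tested genes to -0.22 and that of the members to -0.47. They put 23 members at an unadjusted p under 0.05 by edgeR. Over all tested genes, calls lower at an adjusted p under 0.05 rose from 290 to 857 with them. They also turned the sign of Ifi27 (-0.082), Ifih1 (-0.10), Ifit1 (-0.19), Irf3 (-0.14), Irf7 (-0.15), Irf9 (-0.12), Rsad2 (-0.074) and Usp18 (-0.13). Ifit1 also turned with at least 10 counts in every mouse (-0.0032), limma-voom (-0.0033) and upper-quartile normalization (-0.029). With 1 mouse left out the log2 fold change crossed 0 for Gbp2b (-0.32 to 1.65), Gbp3 (-0.31 to 0.023), Ifit1 (-0.10 to 0.22), Irf2 (-0.18 to 0.089), Irf3 (-0.016 to 0.16), Irf7 (-0.093 to 0.22) and Usp18 (-0.027 to 0.18). The member median ran from -0.30 to -0.13 in these fits. Of 495 values of 31 named members, 463 kept their direction and their side of the threshold, and 29 of the 31 were called in no fit. The causes were not tested. No paired analysis was possible because the labels give each mouse its own number. With 4 mice a group, intervals of scarce members such as Gbp2b, Ifitm6 and Ifit1bl1 reach past a 2-fold change in at least 1 direction.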
